A study of Mus musculus with 4 samples.

Results

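The Nrf2 antioxidant response was followed through 10 genes chosen by name: the regulators Nfe2l2 and Keap1, the glutathione genes Gclc, Gclm and Gsr, the thioredoxin genes Txnrd1 and Srxn1, the quinone reductase Nqo1, the heme oxygenase Hmox1 and the NADPH enzyme G6pdx. For each gene the brightest probe set that the array's gene table assigns to that symbol alone was taken. Of the 10 genes 9 had such a probe set, among 19938 genes measured, and each of the 9 had exactly 1. G6pdx is not analysed here.

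RNA came from cultures of Py2T, 1 mouse breast cancer cell line, established from a mammary tumour of a mouse expressing the polyoma middle T oncogene, which loses epithelial features under TGFβ. The study compared 2 arrays of untreated cells with 2 arrays of cells that received TGFβ at 2 ng/ml and were harvested after 5 days, all grown in serum-containing DMEM. Values are RMA expression values on the log2 scale, so that a difference of 1 is a 2-fold change. Medians over all probe sets lay between 6.74 and 6.76 in the 4 arrays, and the lowest and highest values of any array were 3.33 and 14.29. The labels call the arrays biological replicates and say nothing more of separate cultures, so the p-values reflect only the variation among these samples, which may be technical. With so few arrays, precision is limited throughout.

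Nrf2, the product of Nfe2l2, is a transcription factor that pairs with small Maf proteins on antioxidant response elements in front of genes for glutathione synthesis, thioredoxin reduction, quinone detoxification and NADPH supply. In unstressed cells Keap1 holds Nrf2 and hands it to the Cul3 ubiquitin ligase for degradation, and reactive electrophiles disable Keap1. The pathway is thus set largely by protein stability, which expression arrays do not measure. Bach1, a heme-regulated repressor, occupies many of the same elements, among them those of Hmox1.

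After TGFβ the 9 measured genes did not move as a block. Hmox1 rose 2.30-fold and Srxn1 rose 1.46-fold, Nfe2l2 fell to a level 1.66-fold lower, and Keap1, Gclc, Gclm, Gsr, Txnrd1 and Nqo1 did not pass the test. The threshold was an adjusted p under 0.05 in limma, a linear model with moderated variances, with p-values adjusted over all 19938 genes. By that rule 2 of 9 genes were higher (22.2%, against 6.49% of all genes) and 1 was lower (11.1%, against 7.15% of all genes), with 13.6% of all genes called in either direction. Among the 10689 genes with a mean of at least 7, where 8 of the 9 lie, 22.4% were called, 10.5% higher and 11.9% lower. With counts this small, and with genes named in the knowledge of earlier results, nothing particular to the group is read from these shares. The median difference of the 9 genes was 0.029 on the log2 scale, against 0.0097 for all genes.

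**Figure D1:**
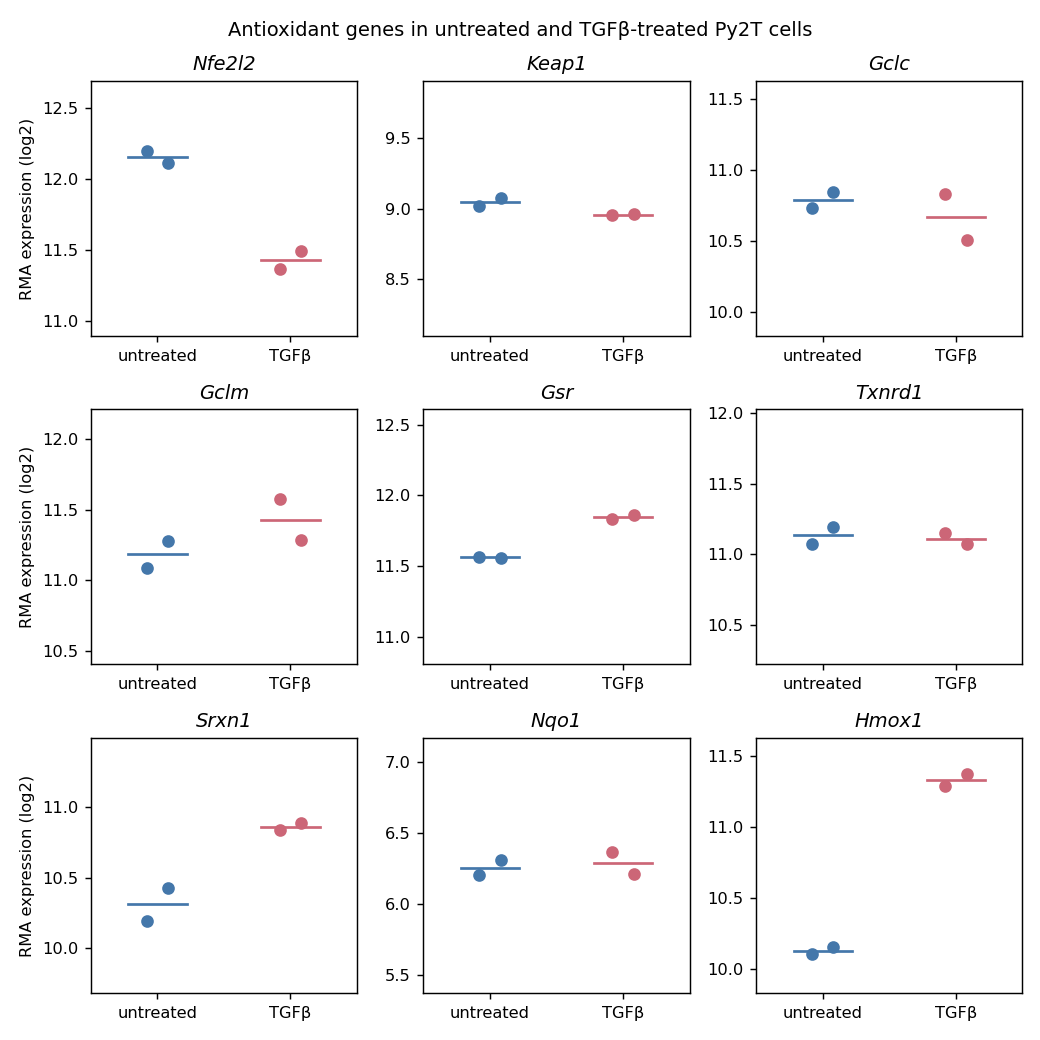
Expression (RMA, log2, vertical axis) of the 9 measured antioxidant genes in untreated and TGFβ-treated Py2T cells, 1 point per array and a line at each group mean (n = 2), every panel spanning the same log2 range. Nfe2l2, Srxn1 and Hmox1 show separated groups that passed the test, Gsr shows separated groups just short of it (adjusted p = 0.053), and the groups of Gclc, Txnrd1 and Nqo1 overlap.

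Nfe2l2, which encodes Nrf2 itself, measured 12.20 and 12.12 without treatment and 11.37 and 11.49 after TGFβ. Both TGFβ arrays lay well below both untreated arrays, and the gene remained among the brighter ones on the array in each group. It fell by 0.73 ± 0.08 on the log2 scale (SE, 95% interval -0.94 to -0.52, limma adjusted p = 0.0046), the 613th largest fall of all genes. In RNA from whole cultures, fewer cells expressing a gene and less RNA per cell cannot be told apart. The call held whichever array was left out, with differences from -0.79 to -0.67.

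Keap1, the adaptor that targets Nrf2 for degradation, measured 9.02 and 9.07 without treatment and 8.95 and 8.96 with TGFβ. The 4 values nearly coincide, although the groups do not overlap, a pattern found in 52.6% of all genes. The difference was -0.09 (95% interval -0.27 to 0.09, adjusted p = 0.57).

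Promoter sequences from RefSeq (build GRCm38.p6), running from 250 bases before to 50 bases after a gene's start, were searched on both strands for the core letters of the antioxidant response element, TGACNNNGC and TGAGNNNGC, and for the AP-1 heptamer TGANTCA, whose matches can overlap the element. Of the 10 genes 7 had a window in the table, and Hmox1, Gclc and Gsr did not. TGACNNNGC occurs in 12.4% of all 32851 windows, TGAGNNNGC in 17.6%, either of these in 27.8% and TGANTCA in 7.81%, so single matches are common. The windows of Nfe2l2, which fell, Srxn1, which rose, and Gclm and Nqo1, which were not called, are shown for comparison, 5′ to 3′ along each gene's own strand, with every match to any of the 3 motifs in capitals. They lie at chr2:75704614-75704913 (Nfe2l2, minus strand), chr2:152105274-152105573 (Srxn1, plus strand), chr3:122245307-122245606 (Gclm, plus strand) and chr8:107403156-107403455 (Nqo1, minus strand).
Nfe2l2: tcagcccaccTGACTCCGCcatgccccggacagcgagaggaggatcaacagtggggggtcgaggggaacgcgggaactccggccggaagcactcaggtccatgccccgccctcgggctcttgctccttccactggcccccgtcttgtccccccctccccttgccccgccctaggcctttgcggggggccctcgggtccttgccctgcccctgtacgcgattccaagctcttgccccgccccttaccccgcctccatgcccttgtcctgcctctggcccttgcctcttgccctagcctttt
Srxn1: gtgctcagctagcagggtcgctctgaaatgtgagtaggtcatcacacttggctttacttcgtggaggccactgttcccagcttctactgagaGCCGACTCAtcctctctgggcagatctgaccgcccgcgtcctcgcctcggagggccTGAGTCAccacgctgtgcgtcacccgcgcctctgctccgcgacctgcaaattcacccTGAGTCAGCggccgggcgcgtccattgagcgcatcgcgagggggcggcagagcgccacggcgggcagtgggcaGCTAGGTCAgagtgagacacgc
Gclm: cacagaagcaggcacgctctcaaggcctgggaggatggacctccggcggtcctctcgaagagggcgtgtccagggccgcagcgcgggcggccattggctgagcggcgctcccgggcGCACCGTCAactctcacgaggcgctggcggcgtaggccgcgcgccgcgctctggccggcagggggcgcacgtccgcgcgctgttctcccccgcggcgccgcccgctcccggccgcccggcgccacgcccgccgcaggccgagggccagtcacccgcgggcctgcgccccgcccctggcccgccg
Nqo1: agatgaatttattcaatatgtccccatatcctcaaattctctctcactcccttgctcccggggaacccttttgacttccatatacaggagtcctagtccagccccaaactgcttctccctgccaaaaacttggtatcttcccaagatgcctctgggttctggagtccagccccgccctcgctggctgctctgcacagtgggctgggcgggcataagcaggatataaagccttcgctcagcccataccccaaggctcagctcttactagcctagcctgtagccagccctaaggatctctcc

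The Nfe2l2 window holds 1 match, TGACTCCGC, beginning 240 bases before the start. The Srxn1 window is the richest of the 4. Its TGAGTCAGC, 45 bases before the start, is at once an element core and an AP-1 heptamer, a second TGAGTCA lies 102 bases before the start, and single matches on the opposite strand, TGAGTCGGC and TGACCTAGC, lie 158 bases before and 28 bases after it. The Gclm window holds TGACGGTGC on the opposite strand, 134 bases before the start, and the Nqo1 window holds none of the 3 motifs. Element letters were thus present in a gene that fell, in one that rose and in one that was not called. Such matches are a description of letters in these windows, and they say nothing of which factor binds there.

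Srxn1 encodes sulfiredoxin, which repairs overoxidised peroxiredoxins. It measured 10.20 and 10.43 without treatment and 10.84 and 10.88 with TGFβ, so that both TGFβ arrays were above both untreated arrays and the untreated pair was the more scattered. Srxn1 rose by 0.55 ± 0.10 on the log2 scale (SE, 95% interval 0.30 to 0.79, limma adjusted p = 0.020). When limma was fitted and adjusted over all 35556 probe sets, Srxn1 did not pass (adjusted p = 0.070). Hmox1 (0.0089) and Nfe2l2 (0.026) did. The Srxn1 call over genes needed 3 of the 4 arrays. Here and below, a call is said to need an array if it was lost in the fit without it. Such a fit has fewer residual degrees of freedom and takes its within-group spread from the remaining pair alone. A call can therefore be lost through lower precision while the difference hardly changes. Dropping untreated replicate 1 gave 0.43 at an adjusted p of 0.081, dropping TGFβ replicate 1 gave 0.57 at 0.059, and dropping TGFβ replicate 2 gave 0.52 at 0.065. The call held when untreated replicate 2 was dropped (0.66, adjusted p = 0.022).

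Txnrd1, the cytosolic thioredoxin reductase that hands electrons from NADPH to thioredoxin, did not pass the test. It measured 11.07 and 11.20 in untreated cells and 11.15 and 11.07 after TGFβ, with overlapping groups. Its difference was -0.02 (95% interval -0.23 to 0.18, adjusted p = 0.92), and its sign changed without untreated replicate 2 (0.04) or TGFβ replicate 2 (0.02).

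Gclc and Gclm form glutamate-cysteine ligase, the rate-limiting enzyme of glutathione synthesis, as catalytic and modifier subunit. Gclc measured 10.73 and 10.85 in untreated cells and 10.83 and 10.51 after TGFβ, with overlapping groups, and differed by -0.12 (95% interval -0.43 to 0.18, adjusted p = 0.66). Without TGFβ replicate 2 its difference was 0.04. Gclm measured 11.09 and 11.28 without treatment and 11.58 and 11.28 with TGFβ, where the lower TGFβ array barely exceeded the higher untreated one. It differed by 0.25 (95% interval -0.06 to 0.55, adjusted p = 0.30).

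Both ligase subunits were lower in TGFβ replicate 2 than in TGFβ replicate 1, Gclc by 0.32 and Gclm by 0.29, the widest gaps between replicates among the 9 genes. The log2 ratio of Gclm to Gclc varied less between replicates than either gene. This ratio, looked at after the values were seen, was 0.36 and 0.43 in untreated arrays and 0.75 and 0.78 in TGFβ arrays, a difference of 0.37. Its level has no meaning across probe sets, and the difference describes the measured arrays only. Neither Gclc nor Gclm passed the limma test. An exact two-sided permutation test of 2 against 2 arrays gives p = 0.333, the smallest it can give. The permutation test therefore cannot decide whether the subunits changed unequally.

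Gsr, the reductase that regenerates glutathione at the expense of NADPH, showed the tightest replicates of the 9 genes in untreated cells. It measured 11.57 and 11.56 there and 11.83 and 11.86 after TGFβ. The difference of 0.29 ± 0.07 (SE, 95% interval 0.11 to 0.46) exceeded the gaps between replicates, yet the adjusted p of 0.053 did not pass. With an intensity trend and robust variances it did (adjusted p = 0.029).

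Nqo1, the quinone reductase often used as a readout of Nrf2, was the dimmest of the 9 genes and lay below the array median in every array. It measured 6.20 and 6.31 in untreated cells and 6.36 and 6.21 after TGFβ, and the groups overlap. The difference was 0.03 (95% interval -0.19 to 0.25, adjusted p = 0.91).

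Hmox1, the inducible heme oxygenase that splits heme into biliverdin, iron and carbon monoxide, changed most. It measured 10.10 and 10.15 in untreated cells and 11.29 and 11.37 after TGFβ, 2 tight pairs more than 1 log2 unit apart. Hmox1 rose by 1.20 ± 0.08 on the log2 scale (SE, 95% interval 1.01 to 1.39, limma adjusted p = 7.7e-04), the 245th largest rise of all genes. The call held whichever array was left out, with differences from 1.16 to 1.25, and no other of the 9 genes reached a 2-fold difference.

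**Figure D2:**
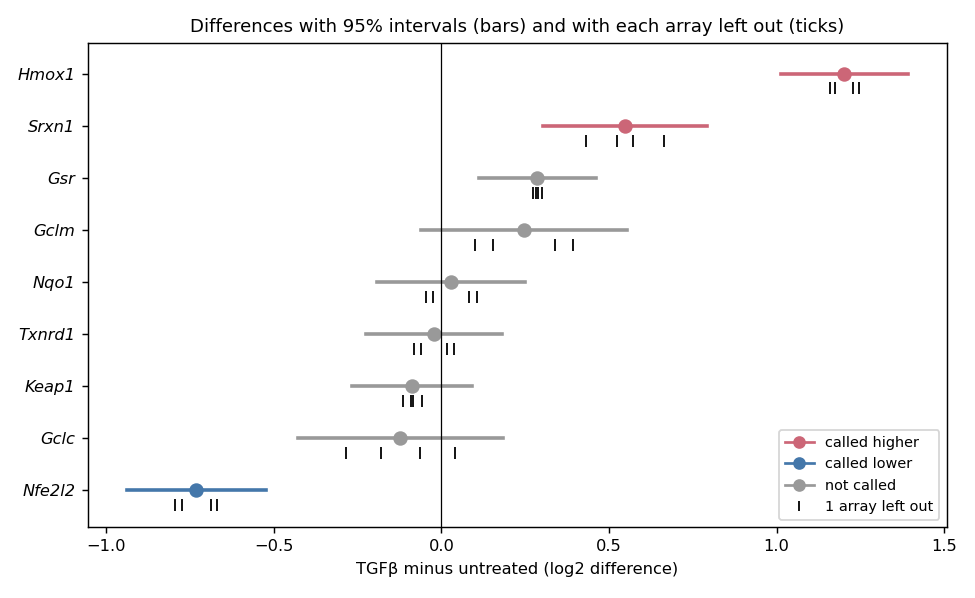
Log2 difference, TGFβ minus untreated, for the 9 antioxidant genes (points) with the 95% interval of the limma fit (bars); ticks under each bar give the difference with 1 array left out. Hmox1 and Srxn1 lie above 0, Nfe2l2 lies below it at -0.73, and the interval of Gsr lies above 0 although its adjusted p was 0.053.

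The wider antioxidant pathway was read from 105 further genes in 8 lists, 98 of them measured. Of these 14 rose, 17 fell and 67 did not pass (14.3% and 17.3%, against 6.49% and 7.15% of all genes), with a median difference of -0.05. Only 13 of the 98 had both group means under 7. Among all genes with a mean of at least 7, 10.5% were called higher and 11.9% lower, closer to the pathway shares. Counts within single lists are small, and nothing particular to a list is read from them. Of the 31 called genes 14 remained called whichever single array was left out. The 3 largest changes were falls of the detoxifying enzymes Ephx1, Aldh3a1 and Gsta4, followed by rises of Ggct and Prdx4.

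**Figure D3:**
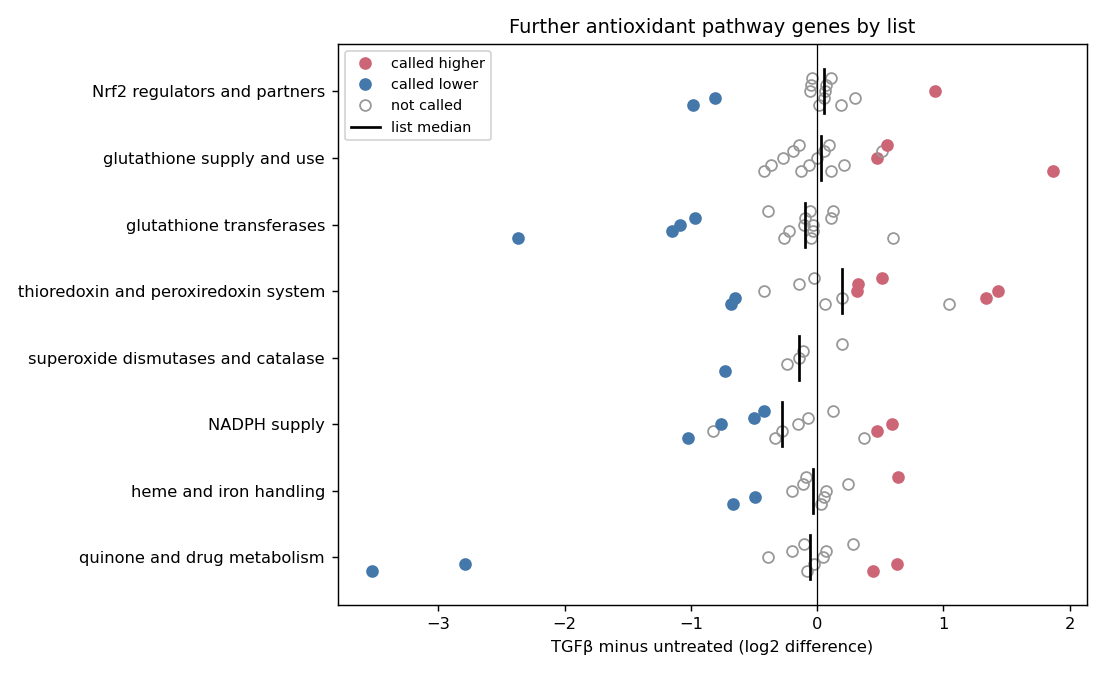
Log2 difference, TGFβ minus untreated, for 98 further pathway genes in 8 lists, 1 point per gene, filled where called by limma (adjusted p under 0.05), with a line at each list's median. Called genes lie on both sides of 0 in 5 lists, on the higher side alone among glutathione supply genes and on the lower side alone among the glutathione transferases and the dismutase list.

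Among 13 regulators and partners of Nrf2, 1 rose and 2 fell (7.69% and 15.4%, against 6.49% and 7.15% of all genes), with a median of 0.06. Bach1, the repressor that competes with Nrf2 at Hmox1, measured 9.96 and 9.89 without treatment and 9.19 and 9.03 with TGFβ. It fell by 0.81 ± 0.09 on the log2 scale (SE, limma adjusted p = 0.0038), a fall close in size to that of Nfe2l2. Maff, a small Maf protein without a transactivation domain, measured 8.89 and 8.91 in untreated cells and 9.87 and 9.80 after TGFβ, and rose 1.91-fold (adjusted p = 0.0015). Nfe2l3, a relative of Nrf2 in the same family, was 1.98-fold lower, from 8.28 ± 0.16 to 7.30 ± 0.04 (mean ± SD, n = 2, limma adjusted p = 0.0030). These 3 calls held whichever array was left out. The small Maf gene Mafg differed by 0.06 (adjusted p = 0.79), the ligase scaffold Cul3 by 0.06 (adjusted p = 0.73) and Sqstm1, an autophagy receptor that binds Keap1, by 0.11 (adjusted p = 0.63), none of them passing.

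Of 16 genes of glutathione supply and use 3 rose and 0 fell in limma, with a median of 0.03. These were 18.8% and 0%, against 6.49% and 7.15% of all genes. At an unadjusted p under 0.05, 1 fell. Ggct, which cleaves gamma-glutamyl dipeptides from glutathione breakdown, measured 6.93 and 6.78 in untreated cells and 8.82 and 8.64 after TGFβ. It rose by 1.87 on the log2 scale, or 3.66-fold (limma adjusted p = 5.2e-04). The cytosolic glutathione peroxidase Gpx1 rose 1.47-fold (adjusted p = 0.018) and glutathione synthetase, Gss, rose 1.39-fold (adjusted p = 0.015). The Gpx1 call needed untreated replicate 1 (0.48 at adjusted p = 0.086 when dropped) and TGFβ replicate 1 (0.47 at adjusted p = 0.065). The Gss call was lost without untreated replicate 1 (0.46), untreated replicate 2 (0.49) or TGFβ replicate 1 (0.41). Its difference changed little from the 0.48 of the full fit. Slc7a11, the cystine importer that feeds glutathione synthesis, measured 9.37 and 8.89 without treatment and 8.22 and 9.20 with TGFβ. Its TGFβ arrays lay far apart, and the difference of -0.42 did not pass (adjusted p = 0.54).

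Of 16 glutathione transferases, which couple glutathione to electrophiles, 0 rose in limma (1 at an unadjusted p under 0.05) and 4 fell. These were 0% and 25%, against 6.49% and 7.15% of all genes, and the median was -0.10. Gsta4, active on the lipid peroxidation product 4-hydroxynonenal, measured 11.33 and 10.87 in untreated cells and 8.23 and 9.23 after TGFβ. It was 5.16-fold lower (-2.37 ± 0.33 on the log2 scale, SE, limma adjusted p = 0.0087), with TGFβ arrays further apart than the untreated ones. On the log2 scale Gstm1 fell by 1.15 (adjusted p = 0.0072) and Gstt1 fell by 1.09 (adjusted p = 0.029). The microsomal transferase Mgst3, named after its values were seen, fell by 0.96 (adjusted p = 0.0016). The Gstt1 call was lost with either TGFβ array dropped, although the difference changed little (-1.02 and -1.15 with replicates 1 and 2 dropped in turn). The only within-group spread left in those fits was that of the untreated pair (7.93 and 7.23). That pair lay further apart than the TGFβ pair (6.42 and 6.56). The other 3 calls held whichever array was left out. Gstm genes are similar in sequence, so their probe sets may share signal.

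Of 13 thioredoxin and peroxiredoxin genes 5 rose and 2 fell (38.5% and 15.4%, against 6.49% and 7.15% of all genes), with a median of 0.20. Prdx4, the peroxiredoxin of the endoplasmic reticulum, measured 8.15 and 8.13 in untreated cells and 9.62 and 9.53 after TGFβ, and rose 2.70-fold (limma adjusted p = 5.2e-04). The sestrins, stress-induced regulators of redox and nutrient signalling, went both ways. Sesn3 rose 2.53-fold (adjusted p = 0.016), while on the log2 scale Sesn2 fell by 0.68 (adjusted p = 0.0054) and Sesn1 fell by 0.65 (adjusted p = 0.015). The Sesn3 call needed TGFβ replicate 1 (1.14 at adjusted p = 0.057 when dropped) and the Sesn1 call needed TGFβ replicate 2 (-0.62 at adjusted p = 0.0502 when dropped).

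Smaller rises were called for Txnrd3 (0.52, adjusted p = 0.028), a relative of Txnrd1 best known from testis, and for mitochondrial thioredoxin, Txn2 (0.33, adjusted p = 0.046), and the peroxiredoxin Prdx2 (0.32, adjusted p = 0.0497), the last 2 named after their values were seen. Txnrd3 needed untreated replicate 1 (0.39 at adjusted p = 0.11 when dropped) and both TGFβ arrays (0.49 at adjusted p = 0.097 and 0.55 at adjusted p = 0.065 with replicates 1 and 2 dropped in turn). Dropping any of the 4 arrays ended the calls of Txn2 (0.28 to 0.37, adjusted p 0.072 to 0.21) and Prdx2 (0.27 to 0.36, adjusted p 0.074 to 0.21), as did median centring (adjusted p = 0.057 and 0.056). Prdx2 was also not called after cyclic loess (adjusted p = 0.054), repeated quantile normalization (adjusted p = 0.058) or without the dimmest 25% of genes (adjusted p = 0.053). Thioredoxin, Txn1, and the cytosolic peroxiredoxin Prdx1 were among the brightest genes measured and differed by -0.03 and 0.06.

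Of the 5 superoxide dismutase and catalase genes only Sod3, the secreted dismutase, was called (20%, against 7.15% of all genes lower). It was 1.66-fold lower, from 7.25 ± 0.05 to 6.52 ± 0.30 (mean ± SD, n = 2, limma adjusted p = 0.026). The call was lost with either untreated array dropped, although the difference changed little (-0.76 and -0.70 with replicates 1 and 2 dropped in turn). In those fits the only within-group spread left was that of the more scattered TGFβ pair (6.31 and 6.73).

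NADPH powers Gsr and the thioredoxin reductases. The list for its supply also holds non-oxidative pentose phosphate enzymes, which do not themselves make NADPH. This list showed 2 rises and 4 falls among 13 genes, with a median of -0.28. The shares were 15.4% and 30.8%, against 6.49% and 7.15% of all genes. Of the 4 falls 3 were in non-oxidative pentose phosphate enzymes, while transaldolase, Taldo1, differed by -0.28 (adjusted p = 0.14). On the log2 scale Rpia, the ribose phosphate isomerase, fell by 1.02 (limma adjusted p = 0.0032), and transketolase, Tkt, fell by 0.77 (adjusted p = 0.011). The epimerase Rpe, named after its values were seen, differed by -0.42 (adjusted p = 0.034) and needed all 4 arrays (-0.35, -0.50, -0.36 and -0.48 with untreated replicates 1 and 2 and TGFβ replicates 1 and 2 dropped in turn, adjusted p = 0.17, 0.059, 0.12 and 0.053). Of the cytosolic enzymes that make NADPH, malic enzyme, Me1, measured 10.36 in both untreated arrays and 10.99 and 10.91 after TGFβ, and rose 1.51-fold (adjusted p = 0.0063). The phosphogluconate dehydrogenase Pgd, the step after G6pdx, differed by -0.07 (adjusted p = 0.67). Cytosolic isocitrate dehydrogenase, Idh1, named after its values were seen, measured 12.19 and 12.06 without treatment and 10.96 and 11.63 with TGFβ. Its difference of -0.83 did not pass (limma adjusted p = 0.060), so of Me1, Pgd and Idh1 only Me1 was called.

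A probe set named for G6pd2, an intronless copy of G6pdx, fell by 0.50 on the log2 scale (limma adjusted p = 0.020). The copies are so alike that the probe set may read either gene, and G6pdx itself is not analysed here. The call needed untreated replicate 1 (-0.43 at adjusted p = 0.0996 when dropped) and TGFβ replicate 2 (-0.44 at adjusted p = 0.065). H6pd, the corresponding enzyme of the endoplasmic reticulum, rose 1.39-fold (adjusted p = 0.022), a call that needed both untreated arrays (0.50 at adjusted p = 0.077 and 0.44 at adjusted p = 0.099 with replicates 1 and 2 dropped in turn) and TGFβ replicate 1 (0.39 at adjusted p = 0.075).

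Around Hmox1, 10 genes of heme and iron handling showed 1 rise and 2 falls, with a median of -0.03. The shares were 10% and 20%, against 6.49% and 7.15% of all genes. Alas1, the first enzyme of heme synthesis, rose 1.56-fold (limma adjusted p = 0.026). Biliverdin reductase A, Blvra, which acts on the product of Hmox1, fell by 0.49 on the log2 scale (adjusted p = 0.011), and the transferrin receptor Tfrc, which brings in iron, fell by 0.66 (adjusted p = 0.019). The Alas1 call needed untreated replicate 2 (0.48 at adjusted p = 0.077 when dropped) and TGFβ replicate 1 (0.56 at adjusted p = 0.095). With untreated replicates 1 and 2 dropped in turn, the calls of Blvra (-0.49 and -0.50, adjusted p = 0.061 and 0.052) and Tfrc (-0.72 and -0.61, adjusted p = 0.051 and 0.076) were lost. The other reductase, Blvrb, differed by 0.07 (adjusted p = 0.78) and the ferritin heavy chain Fth1 by -0.20 (adjusted p = 0.19). The constitutive heme oxygenase Hmox2, like Taldo1 named after its values were seen, differed by 0.05 (adjusted p = 0.77).

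Of 12 genes of quinone and drug metabolism 2 rose and 2 fell (16.7% each, against 6.49% and 7.15% of all genes), with a median of -0.05. Microsomal epoxide hydrolase, Ephx1, measured 11.87 and 11.48 in untreated cells and 7.92 and 8.37 after TGFβ, an 11.5-fold lower level (limma adjusted p = 5.2e-04). Aldh3a1, an aldehyde dehydrogenase that is also a target of the dioxin receptor Ahr, measured 10.60 and 10.56 without treatment and 7.41 and 8.17 with TGFβ. It was 6.92-fold lower (adjusted p = 0.0018), and both calls held whichever array was left out. The 2 rises were Osgin1, an oxidative stress response gene (1.55-fold, adjusted p = 0.014), and Abcc4, an export pump (1.36-fold, adjusted p = 0.040). The Osgin1 call needed untreated replicate 1 (0.53 at adjusted p = 0.056 when dropped). That of Abcc4 needed both untreated arrays (0.46 at adjusted p = 0.13 and 0.43 at adjusted p = 0.14 with replicates 1 and 2 dropped in turn) and TGFβ replicate 1 (0.32 at adjusted p = 0.11).

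**Figure D4:**
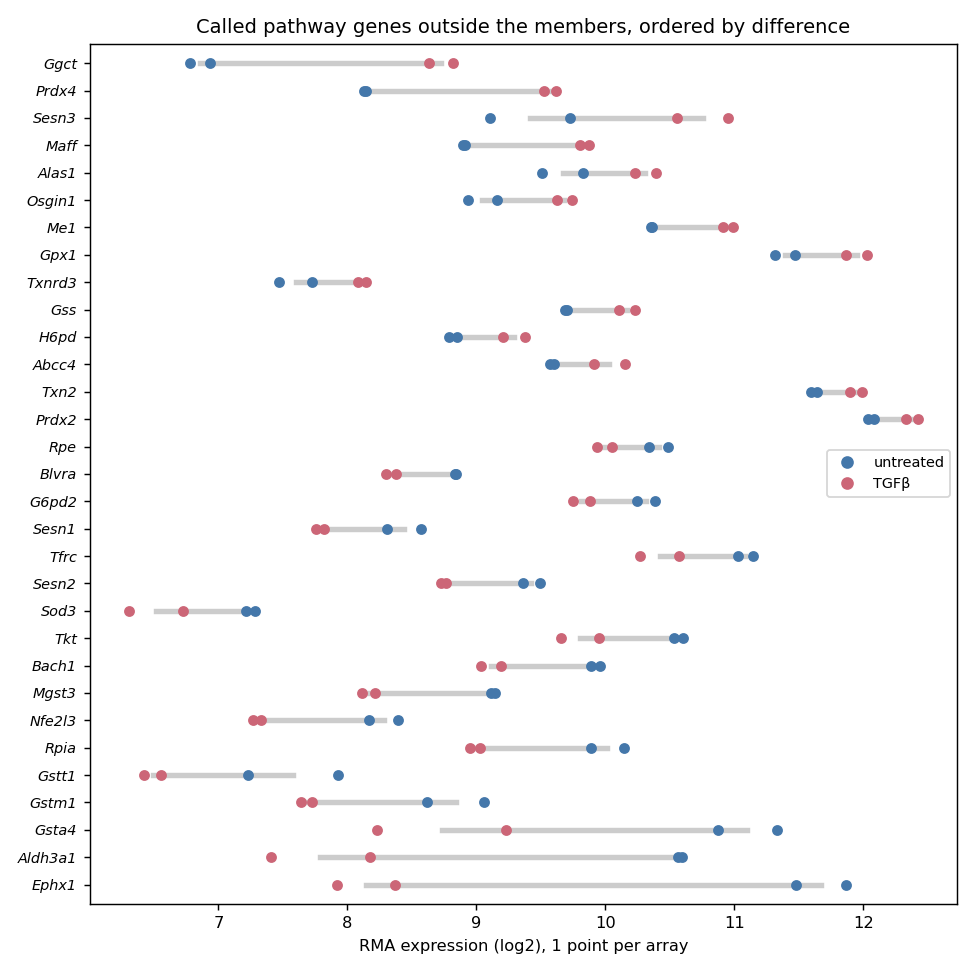
Expression (RMA, log2, horizontal axis) of the 31 called pathway genes, 1 point per array, ordered by difference, with a grey bar joining the group means. Separate points in all 31 follow largely from their choice by the test on these same arrays, and 52.6% of all genes show separate groups. Ephx1, Aldh3a1 and Gsta4 span the widest distances.

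Element letters, TGACNNNGC or TGAGNNNGC, were present in 9 of 19 promoter windows of the pathway genes that rose, in 3 of 17 windows of those that fell and in 23 of 80 windows of those not called, against 27.8% of all windows. Windows were available for all 14 genes that rose, for 14 of the 17 that fell and for 56 of the 67 not called. Gsta4, Aldh3a1 and Sod3, which fell, had none and were not searched. These counts are a description without a test, and some genes contribute several windows that overlap.

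Markers of cell types were read beside these results. The luminal keratins Krt8 and Krt18 lay between 13.21 and 13.61 in all 4 arrays, while Epcam, Cdh1 and Cldn7 fell, so the summed log2 level of the 5 luminal markers was 60.9 to 61.2 in untreated arrays and 55.7 to 57.3 in TGFβ arrays. Endothelial and adipocyte markers had means under 7 in both groups. Of 5 immune markers the summed level of Ptprc, Adgre1 and Itgam with Cd68 and Csf1r was 31.9 to 33.4 in untreated and 30.5 to 31.4 in TGFβ arrays, with 0 of 5 called by limma and 1, Cd68, lower at an unadjusted p under 0.05. Of 4 fibroblast markers Col1a1 alone was called, higher by 0.46. Pdgfra was higher by 0.49 at an unadjusted p under 0.05 (limma adjusted p = 0.097). The summed level of the fibroblast markers was 25.87 to 25.88 in untreated and 26.3 to 27.1 in TGFβ arrays. Of 4 basal markers Krt14 was called lower, with sums of 30.2 to 31.4 and 29.2 to 29.9. The part of these shifts in the antioxidant results was not tested.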

How the data were processed

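Total RNA was measured on Affymetrix expression arrays. The authors deposited log2 expression values per probe set made with RMA in the R package oligo, per the submitters' processing notes, with versions, summary level and genome build not given in the sources used here. RMA quantile-normalizes the arrays together, so differences are relative to the bulk of genes, and no detection calls come with the values. Of 35556 probe sets 21789 carry 1 symbol, 1621 several and 12146 none in the array's gene table; the brightest single-symbol probe set stood for each of 19938 genes. The 2 TGFβ arrays were set against the 2 untreated ones in limma 3.58.1 under R 4.3.3 (lmFit and eBayes, 2 residual and 3.77 prior degrees of freedom) without further normalization or filtering, adjusting p-values over all genes by Benjamini and Hochberg. The fit was also run on simulated data. Variances there were drawn from the fit's own prior with independent errors, so the run does not check those assumptions.

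The members and lists were chosen with earlier results of these data known. All members are named; of each further list, 12 set partners and up to 3 called genes with the largest change in each direction are named. The alternatives covered normalization, dim genes, probe sets, variances, pairing, a 2-fold threshold and leaving out each array. Deviations of same-numbered arrays from their group means were weakly correlated (-0.21 over genes), which cannot exclude paired cultures. Numbers were not taken as pairs, and the number of genes called depended on this choice.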

Additional observations from a re-analysis of the deposited data

How the results depend on the processing

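Hmox1 remained called higher under all 13 alternatives (1.16 to 1.25 on the log2 scale) and Nfe2l2 remained called lower under all but the 2-fold threshold (-0.73, and -0.79 to -0.67 with 1 array left out). Srxn1 missed the 2-fold threshold at 0.55, and ranged from 0.43 to 0.66 with 1 array left out, with 3 of 4 calls lost. Gsr passed with an intensity trend and robust variances (0.29). With 1 array left out, the uncalled Gclc ranged from -0.28 to 0.039, Txnrd1 from -0.083 to 0.037, Nqo1 from -0.047 to 0.11, Mafg from -0.020 to 0.13, Slc7a11 from -0.91 to 0.070, Txn1 from -0.070 to 0.014 and Blvrb from -0.031 to 0.17, and Prdx1 was -1.7e-04 after repeated quantile normalization. Fewer arrays left 740 to 1167 genes called higher and 751 to 1093 lower, 1 to 2 antioxidant members higher and 1 lower each time, and 5 to 12 further pathway genes higher and 12 to 16 lower. With at least a 2-fold difference required, 323 and 354 genes, 1 and 0 members and 3 and 6 further pathway genes were called higher and lower. With the replicate number as a block, 785 genes were called higher, 839 lower and 8 further pathway genes higher, and no call of a member changed. The crossed pairing, chosen after seeing the data, gave 1683 and 1957 genes, 2 and 1 members and 16 and 22 further pathway genes. For 40 of the named pathway genes, 435 of 518 results kept direction and side of the threshold, 77 lost a call and 6 changed sign. The causes of these changes were not tested. Signal over background was not assessed.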
